A study of Mus musculus with 6 samples.

Results

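Natural killer (NK) receptors and cytotoxic effectors were examined as 10 genes, Gzma, Gzmb, Prf1, Fasl, Nkg7, Cd7, Il2rb, Ncr1, Klrd1 and Klrk1. All 10 were on the array, with 13 of its 45037 non-control probe sets, and a probe set was taken when the array annotation assigned it to exactly 1 of the 10. The samples were DN2 thymocytes sorted from fetal thymus of E2A-deficient mice (3 arrays) and wild-type mice (3 arrays), all on the FVB background, and total RNA was amplified and hybridised to Affymetrix mouse arrays to ask which genes depend on E2A in developing T cells. DN2 cells lack CD4 and CD8 and stand at the point where a progenitor commits to the T lineage. The gene Tcf3 makes E12 and E47, E proteins that are together called E2A. The labels give neither the fetal age, nor the part of Tcf3 that is altered, nor whether the deficiency extends beyond the thymocytes, nor whether the replicates came from separate animals or pools, so p-values cover only the spread between these samples.

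NK cells and cytotoxic T cells kill by releasing granules. Perforin opens the way into the target cell, and granzymes, which are serine proteases, start its death. Fas ligand on the killer cell surface is a separate death signal. Activating receptors such as NKp46 and NKG2D decide when an NK cell kills, and interleukin-15, read through the beta chain encoded by Il2rb, keeps NK cells alive. E proteins hold early thymocytes on the T-cell path, and Id2, an inhibitor of E proteins, is needed for NK cells to form.

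E2A factors bind DNA at E boxes, whose letters are CANNTG. To show what a candidate binding region looks like in a member that rose, one that fell and a granzyme gene that was not called, the 250 bases before the transcription start are given for Gzmb, Fasl and Gzma, 5′ to 3′, with every E box in capitals. The sequences are RefSeq's, of the C57BL/6J reference and not of FVB.
Gzmb, GRCm38.p6 chr14:56262335-56262584, minus strand: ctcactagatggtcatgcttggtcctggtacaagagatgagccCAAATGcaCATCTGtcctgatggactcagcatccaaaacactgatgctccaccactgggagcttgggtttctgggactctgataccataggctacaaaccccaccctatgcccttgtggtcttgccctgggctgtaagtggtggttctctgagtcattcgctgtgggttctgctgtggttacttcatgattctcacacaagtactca
Fasl, GRCm38.p6 chr1:161788496-161788745, minus strand: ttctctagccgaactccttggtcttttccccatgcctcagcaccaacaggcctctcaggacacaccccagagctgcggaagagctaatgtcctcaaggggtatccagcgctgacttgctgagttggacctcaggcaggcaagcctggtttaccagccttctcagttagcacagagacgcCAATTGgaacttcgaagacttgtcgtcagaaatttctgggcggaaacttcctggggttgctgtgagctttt
Gzma, GRCm38.p6 chr13:113100982-113101231, minus strand: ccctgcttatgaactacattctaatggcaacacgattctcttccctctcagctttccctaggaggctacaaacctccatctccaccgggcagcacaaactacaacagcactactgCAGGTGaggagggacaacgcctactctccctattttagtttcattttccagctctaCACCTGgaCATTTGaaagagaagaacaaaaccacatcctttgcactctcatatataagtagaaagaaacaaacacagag
Gzmb has 2 E boxes in this window, 207 and 199 bases before the start, Fasl has 1 at 71 bases, and Gzma has 3, at 135, 79 and 71 bases. Of these, only the CAGGTG and the CACCTG of Gzma are of the form CACCTG or its reverse complement. None of the 3 windows holds CAGCTG. E boxes are common in windows of this length, since CANNTG, which reads as an E box on both strands, is in 66.2% of 32851 mouse promoter windows of 250 bases. At least 2 are in 31.8% of these windows, at least 3 in 12.2% and at least 4 in 3.84%. CACCTG or CAGGTG is in 17.2% of them and CAGCTG in 13% of them. Windows were available for 7 of the 10 genes, and those of Prf1, Nkg7, Ncr1 and Klrk1 hold 4, 2, 1 and 1 E boxes. The boxes of Prf1, which was not called, include 1 CAGCTG and 1 CAGGTG. Those of Nkg7, Ncr1 and Klrk1 include neither CAGCTG nor CACCTG or CAGGTG. A match of letters is a description of the window, and binding was not measured.

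The cells were checked first. Tcf3 (1426297_at) read 236, 229 and 281 in E2A-deficient cells, against 477, 421 and 414 in wild-type cells. Il2ra (1420692_at), which encodes CD25, a surface marker of DN2 cells, read 1016, 773 and 1225 in E2A-deficient and 813, 1007 and 897 in wild-type cells. A Cd4 probe set (1419696_at) read 79.5, 82.4 and 85.0 in E2A-deficient cells and 83.4, 81.2 and 91.4 in wild-type cells, and these Il2ra and Cd4 probe sets were picked after their values were seen. Of 15 probe sets of DN2 and early T-lineage markers 0 were higher and 3 lower (20%). The lower ones were Cd3e, with 119, 119 and 112 in E2A-deficient cells and 389, 319 and 360 in wild-type cells (log2 change -1.60, limma adjusted p = 2.8e-04), Cd3g (-2.41, limma adjusted p = 0.00185) and Thy1 (-1.32, limma adjusted p = 0.00257). Cd3e and Cd3g encode chains of the T-cell receptor complex, and Thy1 a surface protein of thymocytes. Array medians were 77.4 to 79.0 and lower quartiles 62.9 to 64.5 over the 6 arrays, and no detection calls were used, so a value near these levels cannot be read as expression or as its absence. Xist (1427262_at) was 1901, 1247 and 2154 in E2A-deficient and 3055, 4456 and 58.7 in wild-type cells, so the arrays did not hold the same mix of sexes. In the control probe sets for beta-actin, the 5′ signal over the 3′ signal, a measure of RNA quality, was 0.165, 0.160 and 0.149 in E2A-deficient samples and 0.104, 0.162 and 0.0981 in wild-type samples. The ratio was lowest in wild-type replicates 1 and 3 and so partly follows genotype. A fit with this ratio as a term therefore cannot fully tell the effects of ratio and genotype apart. The number of arrays limits the precision.

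The 10 genes did not move as a group. Gzmb and Cd7 were higher in E2A-deficient cells, Fasl was lower, and the other 10 probe sets did not pass (limma across all probe sets, Benjamini-Hochberg adjusted p under 0.05). That is 2 of 13 probe sets higher, where 1.21% of all probe sets on the array were called higher, and 1 lower, where 0.58% were. The 10 genes were chosen with earlier results of these data known, so these shares are a description and not a test. The median log2 change of the 13 was 0.016, against 0.0039 over all probe sets. Each log2 change is the mean log2(intensity + 1) of E2A-deficient cells minus that of wild-type cells, and levels are deposited linear intensities, not compared between probe sets. In bulk samples, fewer cells of a type and less RNA per cell cannot be told apart.

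**Figure D1:**
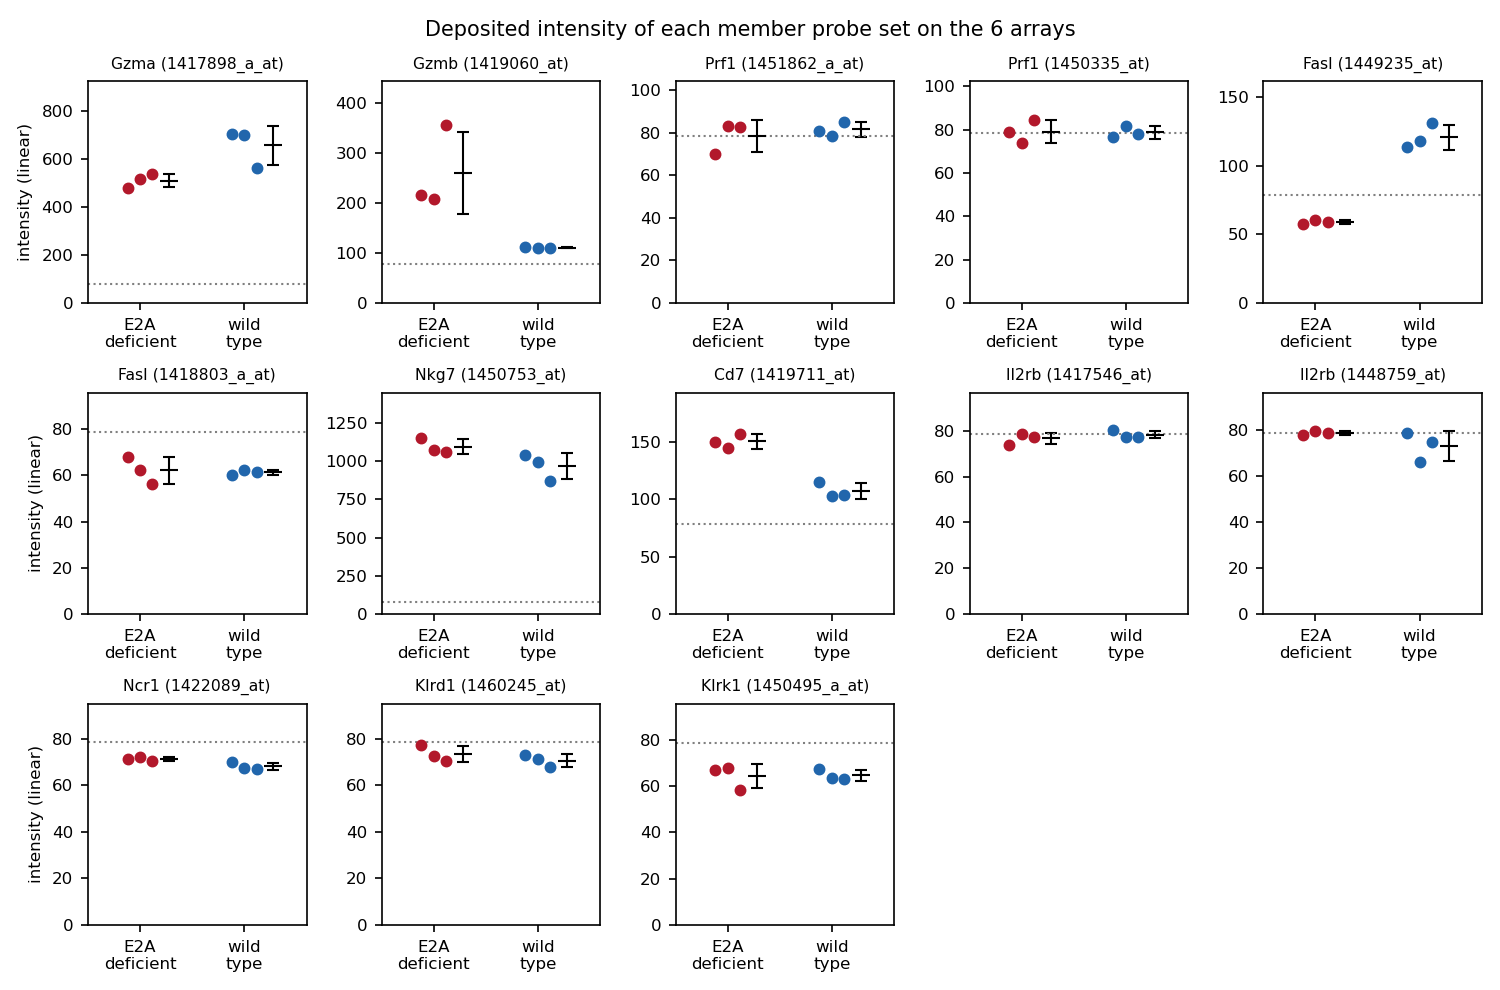
Deposited linear intensity of the 13 probe sets of the 10 genes, 1 panel each, with the 3 E2A-deficient arrays (red) left and the 3 wild-type arrays (blue) right. Black marks give mean and SD (n = 3), and the dotted line is the middle of the array medians. Gzmb and Cd7 sit higher and Fasl (1449235_at) lower in E2A-deficient cells with no overlap, while the probe sets of Prf1, Il2rb, Klrd1 and Klrk1 overlap between the groups.

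Among the granule proteases, Gzmb rose and Gzma did not. Gzmb encodes granzyme B, a protease that cuts after aspartate and activates caspases in the target cell. Its intensity (1419060_at) was 216, 208 and 354 in E2A-deficient cells, against 111, 109 and 110 in wild-type cells. The 3 wild-type values nearly coincided, every E2A-deficient value lay above them, and E2A-deficient replicate 3 stood well above the other two. The mean was 260 ± 82.2 in E2A-deficient and 110 ± 1.08 in wild-type cells (SD, n = 3 each), a log2 change of 1.19 (SE 0.188, 95% interval 0.75 to 1.63), or 2.28-fold (limma adjusted p = 0.0286). Without E2A-deficient replicate 3, the high one, the log2 change was 0.94 and the adjusted p by limma 0.0033. The call was lost without E2A-deficient replicate 1 (limma adjusted p = 0.0552) and without wild-type replicate 1 (0.0728), 2 (0.0950) or 3 (0.0864), while the change stayed between 1.18 and 1.30 in these fits. In a fit that included this beta-actin ratio as a term, the log2 change was 1.28 with a limma adjusted p of 0.227.

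Gzma encodes granzyme A, a protease of trypsin-like specificity that acts without the main caspase route. It read 480, 516 and 537 in E2A-deficient cells and 707, 701 and 565 in wild-type cells (1417898_a_at). All E2A-deficient values lay below all wild-type values, but wild-type replicate 3 came close to them. The mean was 511 ± 28.7 in E2A-deficient cells and 658 ± 80.1 in wild-type cells (SD, n = 3 each). The log2 change was -0.36 (SE 0.0979, 95% interval -0.59 to -0.13) and did not pass over all probe sets (limma adjusted p = 0.161). It passed without wild-type replicate 3, with a log2 change of -0.46 (limma adjusted p = 0.0483), and after quantile normalization (-0.45, limma adjusted p = 0.0292). The 95% intervals of the 2 granzymes lay on opposite sides of 0.

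Perforin and the granule membrane protein NKG7 gave no call. Prf1, which encodes perforin, read 69.9, 83.1 and 82.7 in E2A-deficient cells and 81.0, 78.7 and 85.4 in wild-type cells on 1 probe set (1451862_a_at). On the other (1450335_at) it read 78.9, 73.9 and 84.7 in E2A-deficient cells, against 76.5, 81.9 and 77.9 in wild-type cells. Both stood at the array median and overlapped between the groups, with log2 changes of -0.059 (95% interval -0.25 to 0.13) and 0.0054 (95% interval -0.15 to 0.16). Nkg7, whose product sits in the granule membrane and takes part in granule release, read 1155, 1071 and 1064 in E2A-deficient cells, against 1038, 998 and 874 in wild-type cells (1450753_at). Its 3 E2A-deficient values lay above the 3 wild-type values by a narrow margin. Its log2 change of 0.18 (SE 0.0787, 95% interval -0.0046 to 0.36) missed the threshold (limma adjusted p = 0.416).

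Fasl, the gene of the death ligand that engages Fas, was the member with the smallest p. Its intensity (1449235_at) was 57.4, 60.2 and 58.7 in E2A-deficient cells, against 113, 118 and 131 in wild-type cells. The groups were far apart, and each was tight. The mean was 58.8 ± 1.41 in E2A-deficient and 121 ± 9.04 in wild-type cells (SD, n = 3 each), a log2 change of -1.02 (SE 0.0677, 95% interval -1.18 to -0.86; limma adjusted p = 9.6e-04). The E2A-deficient values lay below the lower quartile of every array, where the deposited values have a floor, so the fold may be understated. The second probe set (1418803_a_at), of the type that reads several transcripts of 1 gene, was 68.0, 62.3 and 56.2 in E2A-deficient cells and 59.99, 62.4 and 61.3 in wild-type cells. It stayed at that low level in both groups, with a log2 change of 0.016 (95% interval -0.16 to 0.20). The 2 probe sets of Fasl thus did not report the same difference, and the mean of both gave -0.50. The fall of 1449235_at kept its call in all 18 alternatives, 1 of which is the mean of both probe sets, with limma adjusted p from 1.3e-05 to 0.0306.

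Cd7 encodes an immunoglobulin-family surface protein that is borne by early lymphoid cells, T cells and NK cells. It read 150, 144 and 157 in E2A-deficient cells and 115, 103 and 103 in wild-type cells (1419711_at). The groups did not overlap and their spreads were alike, with means of 150 ± 6.29 in E2A-deficient and 107 ± 6.63 in wild-type cells (SD, n = 3 each). The log2 change was 0.49 (SE 0.0661, 95% interval 0.33 to 0.64; limma adjusted p = 0.0165). The call was lost without E2A-deficient replicate 1 (limma adjusted p = 0.0627) or 3 (0.0717) and without wild-type replicate 2 (0.0644) or 3 (0.0579). With the replicate number as a block the limma adjusted p was 0.0538, and with a term for the beta-actin ratio it was 0.136, while over all alternatives the change stayed between 0.44 and 0.54.

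**Figure D2:**
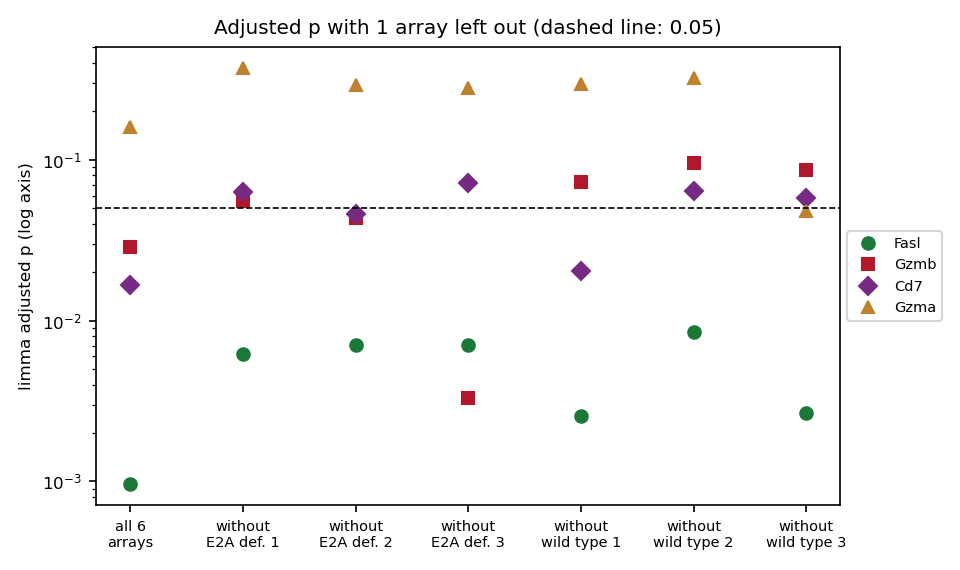
Benjamini-Hochberg adjusted p of limma (log axis) for 4 member probe sets with all 6 arrays and with 1 array left out at a time, E2A-deficient arrays first, and the threshold of 0.05 dashed. Fasl (1449235_at, circles) is below the line in each fit, Gzmb (squares) and Cd7 (diamonds) cross it in 4 of the 6, and Gzma (triangles) is below it only without wild-type replicate 3.

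The 4 receptor genes gave no call. Ncr1, which encodes the activating receptor NKp46, read 71.5, 72.3 and 70.5 in E2A-deficient cells and 69.9, 67.5 and 67.1 in wild-type cells (1422089_at). The E2A-deficient values were a little higher without overlap, and the log2 change was 0.067 (95% interval -0.052 to 0.19). Klrd1, which encodes CD94, the partner of NKG2 chains, read 77.2, 72.8 and 70.6 in E2A-deficient and 73.0, 71.1 and 67.7 in wild-type cells (1460245_at), with a log2 change of 0.057 (95% interval -0.085 to 0.20). Klrk1, which encodes NKG2D, a receptor for stress-induced ligands, read 67.1, 67.6 and 58.3 in E2A-deficient and 67.5, 63.5 and 63.1 in wild-type cells (1450495_a_at). Its log2 change was -0.0099 (95% interval -0.18 to 0.16). The groups overlapped for both lectin-like receptors.

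Il2rb was read by a pair of probe sets. One (1417546_at) gave 74.0, 78.7 and 77.5 in E2A-deficient cells and 80.4, 77.4 and 77.5 in wild-type cells, and the other (1448759_at) gave 77.8, 79.4 and 78.8 in E2A-deficient cells and 78.6, 66.0 and 74.8 in wild-type cells. Both overlapped between the groups, with log2 changes of -0.032 (95% interval -0.16 to 0.094) and 0.11 (95% interval -0.064 to 0.28). Over the 4 receptor genes the limma adjusted p was 0.678 or more. The values of all 4 lay between 58.3 and 79.4 in E2A-deficient cells and between 63.1 and 80.4 in wild-type cells, around or below the array medians. Over all 13 probe sets, 6 had groups that did not overlap, 4 higher and 2 lower in E2A-deficient cells. Of all probe sets on the array 16.9% did not overlap, 10.1% higher and 6.79% lower.

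**Figure D3:**
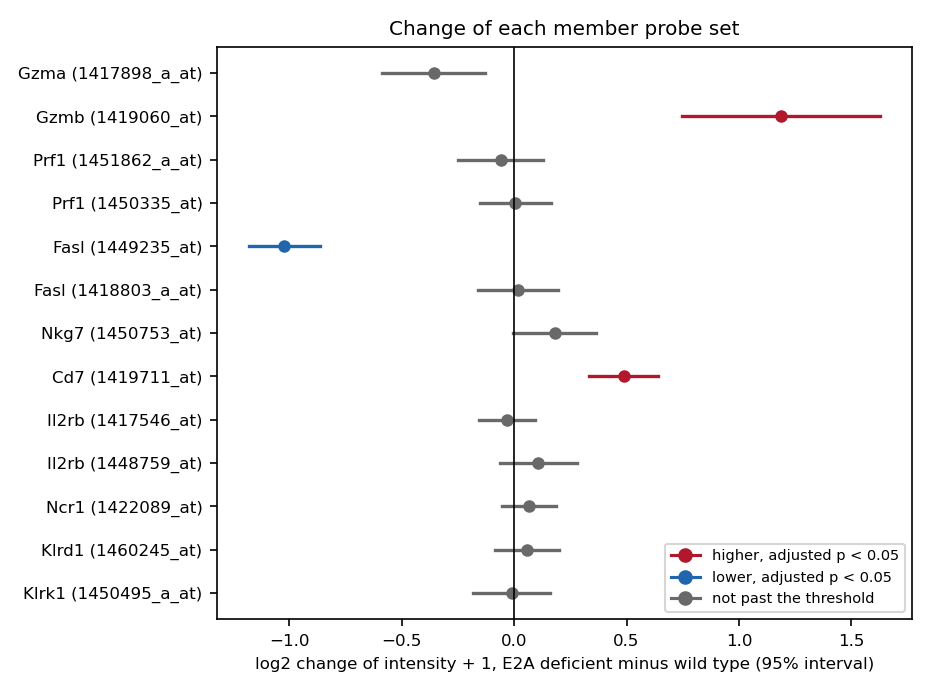
Log2 change of intensity + 1 (E2A deficient minus wild type) of the 13 probe sets, with 95% intervals from limma. Gzmb (1.19) and Cd7 (0.49) are past the threshold upward and Fasl 1449235_at (-1.02) downward, and the intervals of the Prf1, Il2rb, Ncr1, Klrd1 and Klrk1 probe sets all include 0.

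Genes with a profile like that of each called member were listed by Pearson r of log2 values over the 6 arrays, as a description. The 6 points fall into the 2 groups, so r mostly follows the group difference. The nearest to Gzmb were Ero1a (r = 0.997), Prrc1 (0.996) and Paqr8 (0.996), and 235 of 18946 probe sets had r above 0.95. The nearest to Fasl were Rab38 (0.998), Notch3 (0.997) and Epha2 (0.996), with 133 above 0.95. The nearest to Cd7 were Tiam1 (0.997), Tox2 (0.996) and Gm4047 (0.995), with 349 above 0.95. Ero1a, like Gzmb, was highest in E2A-deficient replicate 3, reading 250, 251 and 330 in E2A-deficient cells and 161, 155 and 156 in wild-type cells.

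Related genes, of the killing machinery and of wider NK-cell and T-cell signalling and regulation, were taken from 9 lists without the 10 members. Over these lists 258 probe sets of 134 genes were measured, 19 higher and 10 lower in E2A-deficient cells. That is 11.2% called, against 1.79% of all probe sets. In the fit of only the probe sets brighter than the median, 3.94% were called. The lists were chosen with earlier results of these data known, and some genes were called on several probe sets. The excess over the array is therefore a description and not a test. With a term for the beta-actin ratio 9 of the 258 were called, among them Sh2d1a, Lat, Id2 and Zbtb16 (1419874_x_at), while no other called probe set named from these lists passed. An unadjusted p under 0.05 was reached by 12.5% of all probe sets, against which such counts are to be read. The calls were uneven. The list of NK transcription factors held 18 of the 29, and the lists of granule contents, granule release and the interleukin-2 and interleukin-15 receptor pathway held 0.

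The list of granule contents had 21 probe sets and 0 calls by limma, with 3 at an unadjusted p under 0.05 (14.3%) and a median log2 change of 0.065. The smallest p belonged to Ctsc, which encodes cathepsin C, the protease that activates granzymes. It read 1231, 1359 and 1853 in E2A-deficient cells and 1018, 765 and 857 in wild-type cells, with a log2 change of 0.74 (1416382_at, limma adjusted p = 0.0925). It was called in 3 alternatives, with only the brighter probe sets (limma adjusted p = 0.0395), with trend and robust variances (0.0320) and when its probe sets were averaged, where the log2 change was 0.37 (0.0437). Its highest value was in E2A-deficient replicate 3, as for Gzmb. Lamp1, a membrane protein of lytic granules, had a log2 change of 0.30 (limma adjusted p = 0.300). The other granzyme genes, looked at as a family after their values were seen, gave 9 probe sets of 8 genes between 45.9 and 83.8 in E2A-deficient and between 47.7 and 91.6 in wild-type cells. Their log2 changes lay between -0.061 and 0.087 with 0 calls by limma and 0 unadjusted p under 0.05, and near-identical copies among them may share probes. The granule release list had 35 probe sets and 0 calls by limma, with 10 at an unadjusted p under 0.05 (28.6%), led by the vesicle GTPase gene Rab27a (log2 change -0.46, limma adjusted p = 0.0864) and the actin regulator gene Coro1a (0.46, limma adjusted p = 0.109). Averaged over its probe sets, Rab27a had a log2 change of -0.15.

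Among other NK receptors, 2 of 36 probe sets were higher and 0 lower (5.56% called), and the median log2 change was 0.0095. This list names 38 genes, of which 24 were measured, and Klrb1c was not among those measured. Cx3cr1, the fractalkine receptor, read 204, 189 and 148 in E2A-deficient cells and 91.5, 99.4 and 104 in wild-type cells, a log2 change of 0.86 (1450020_at, limma adjusted p = 0.0183). Its second probe set (1450019_at) overlapped between the groups, with a log2 change of 0.034 (limma adjusted p = 0.937), and the average of both gave 0.45. Cd160, a receptor of cytotoxic lymphocytes, read 272, 211 and 259 in E2A-deficient cells and 165, 168 and 146 in wild-type cells, a log2 change of 0.62 (1420396_at, limma adjusted p = 0.0374). Its other probe sets were not called. Their log2 changes were 0.81 (1420066_s_at, limma adjusted p = 0.137), 0.27 (1456847_at, 0.254) and -0.0069 (1420067_at, 0.991). For Cx3cr1 the call depended on E2A-deficient replicates 1 and 2 and wild-type replicates 1 and 2, each left out in turn (limma adjusted p 0.0505 to 0.0695), and Cd160 was called with 1 array left out only where that was E2A-deficient replicate 2 (otherwise 0.0781 to 0.140). With the replicate number as a block neither was called (limma adjusted p = 0.0613 for Cx3cr1 and 0.0868 for Cd160), nor with a term for the beta-actin ratio (0.229 and 0.366), and Cd160 was not called with array weights (0.0532). The other killer lectin-like receptor genes that were measured, grouped after their values were seen, gave 21 probe sets of 14 genes, with 0 calls by limma and 1 unadjusted p under 0.05. They lay between 44.9 and 97.7 in E2A-deficient and between 48.1 and 98.8 in wild-type cells, and members of this family can share probes.

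Receptor adaptors and signalling genes, with the Fc receptor gene Fcgr3 among them, gave 4 rises and 1 fall in 31 probe sets (16.1% called, median log2 change 0.055). Among the genes not called were Hcst, Cd247, Syk and Zap70, named after their values were seen. Tyrobp, which encodes DAP12, an adaptor of activating NK receptors, read 1206, 1081 and 1157 in E2A-deficient cells and 641, 520 and 463 in wild-type cells (log2 change 1.10, limma adjusted p = 0.00604). Fcgr3 encodes the Fc receptor CD16, and its log2 change was 1.22 (limma adjusted p = 0.00228). Fcer1g, which encodes the gamma chain that pairs with CD16 and NKp46, changed by 1.22 on the log2 scale (limma adjusted p = 0.00348). The largest rise was that of Sh2d1a, whose product SAP serves the receptors of the SLAM family, at 341, 364 and 390 in E2A-deficient cells and 79.8, 61.8 and 56.3 in wild-type cells (2.46, limma adjusted p = 2.9e-04). Lat, the T-cell receptor adaptor, read 151, 149 and 135 in E2A-deficient cells and 326, 317 and 287 in wild-type cells (-1.09, limma adjusted p = 0.0010). Tyrobp, Fcgr3 and Fcer1g are also expressed by myeloid cells and mast cells, whose markers are given at the end.

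The list of the interleukin-2 and interleukin-15 receptor pathway names 15 genes, partners of Il2rb among them, and 14 were measured. Il2rg, which encodes a partner chain of the Il2rb product, was not measured. The list gave 0 calls by limma in 28 probe sets, with 8 at an unadjusted p under 0.05 (28.6%) and a median log2 change of -0.092. The smallest p-values belonged to Il21r (log2 change -0.23, limma adjusted p = 0.191) and the signalling inhibitor gene Socs2 (-0.38, limma adjusted p = 0.226, and -0.19 averaged over its probe sets).

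NK transcription factors changed in both directions, with 10 of 47 probe sets higher and 8 lower (38.3% called), which came from 7 genes higher and 5 lower. The list also holds regulators of T and innate lymphoid cells. Id2 read 388, 436 and 502 in E2A-deficient cells and 149, 178 and 159 in wild-type cells on 1435176_a_at (log2 change 1.44, limma adjusted p = 0.0015). Its other 2 probe sets overlapped between the groups and were not called, with log2 changes of 0.15 (1422537_a_at, limma adjusted p = 0.462) and 0.062 (1453596_at, 0.870), and the average of the 3 gave 0.55 (0.00306). Zbtb16, which encodes PLZF, a factor of innate lymphoid precursors and innate-like T cells, rose by 1.84 on 1419874_x_at and 1.40 on 1439163_at on the log2 scale (limma adjusted p = 1.5e-04 and 0.00336). A further Zbtb16 probe set (1427638_at) was not called, with a log2 change of 0.69 (limma adjusted p = 0.103). Tox (0.93, limma adjusted p = 0.00266, and 0.51 averaged over its probe sets) and Gata3 (1.45, limma adjusted p = 0.00346) rose as well. Ets1, a factor that NK cells need, read 101, 113 and 126 in E2A-deficient cells and 236, 226 and 232 in wild-type cells (1452163_at; -1.03, limma adjusted p = 0.00202). Eomes and Tbx21, the T-box factors that drive NK maturation and were singled out after their values were seen, lay between 54.2 and 74.1 in E2A-deficient and between 55.8 and 80.9 in wild-type cells on 3 probe sets. Their log2 changes were between -0.076 and 0.069, and 0 of the 3 were called by limma, with 0 unadjusted p under 0.05.

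**Figure D4:**
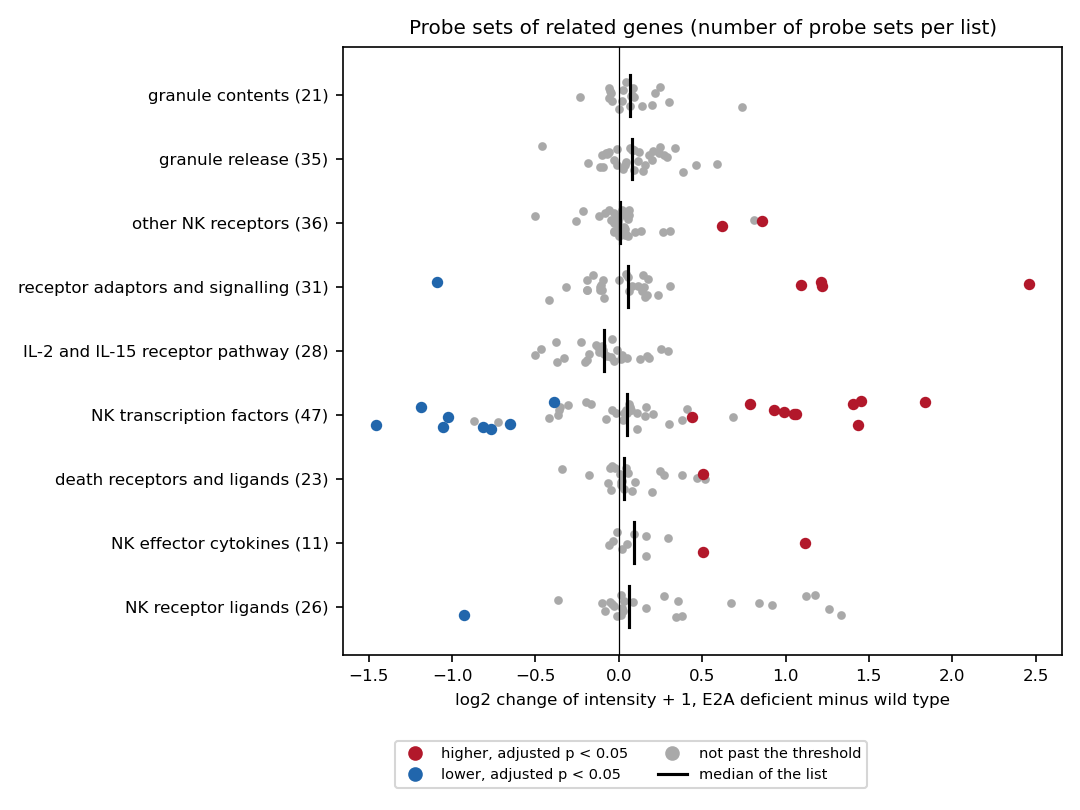
Log2 change of intensity + 1 (E2A deficient minus wild type) of each probe set in the 9 related lists, 1 point per probe set, with the median of each list as a black bar and vertical scatter for legibility only. The red and blue points, past the threshold, are most frequent among transcription factors (10 higher, 8 lower) and absent from the granule and interleukin lists.

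In the remaining lists the calls were few. Among death receptors and ligands, 1 of 23 probe sets was called, that of Tnfsf10, which encodes the death ligand TRAIL. It read 208, 221 and 213 in E2A-deficient cells and 158, 150 and 143 in wild-type cells (1439680_at, log2 change 0.50, limma adjusted p = 0.00996). Its other probe sets were not called, with log2 changes of 0.38 (1459913_at, limma adjusted p = 0.0803) and 0.47 (1420412_at, 0.183). Among NK effector cytokines and their receptors, 2 of 11 probe sets were higher. Ccl5, a chemokine of cytotoxic lymphocytes, read 162, 164 and 227 in E2A-deficient cells and 109, 70.3 and 76.2 in wild-type cells (1.11, limma adjusted p = 0.0374), again with E2A-deficient replicate 3 the highest. It lost its call without any 1 array other than wild-type replicate 1 (limma adjusted p 0.0819 to 0.116), with the replicate block (0.0790) and with a term for the beta-actin ratio (0.149). Il18r1, a chain of the interleukin-18 receptor, changed by 0.51 (limma adjusted p = 0.00636). The list of ligands of NK receptors names 16 genes, of which only 8 were measured. Among these ligands, 1 of 26 probe sets was called, that of Cd48, which binds the receptor CD244, with 185, 204 and 194 in E2A-deficient cells and 416, 331 and 368 in wild-type cells (-0.93, limma adjusted p = 0.00395). In that list 13 of 26 had an unadjusted p under 0.05, and its summed intensity was 13460 to 16610 in E2A-deficient and 7814 to 10993 in wild-type cells. The MHC class I genes H2-K1 and H2-D1 and their light chain gene B2m, singled out after their values were seen, had 15 of those probe sets. Of these 15, 11 were higher in E2A-deficient cells without overlap and 0 were called by limma, with 11 at an unadjusted p under 0.05, log2 changes up to 1.33 and a lowest adjusted p of 0.0663. Class I genes are near-identical and their probes can be shared, so these are not 15 separate readings.

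Markers of other cell types were measured beside these genes. Mast cells use granzyme B, and of 18 mast-cell and basophil probe sets 0 were called by limma and 0 had an unadjusted p under 0.05. Their summed intensity was 2161 to 2544 in E2A-deficient and 2282 to 2380 in wild-type cells. Cpa3, the mast-cell carboxypeptidase that progenitors also express, picked after its values were seen, makes up a large part of that sum. It read 1282, 919 and 1324 in E2A-deficient cells and 1136, 1155 and 1021 in wild-type cells. The list of NK and group 1 innate lymphoid cell markers holds 9 of the uncalled member probe sets and none of Gzmb, Cd7 or Fasl, so it is no separate reading of the members. It gave 0 calls by limma in 13 probe sets, with 1 at an unadjusted p under 0.05, and a summed intensity of 2382 to 2411 in E2A-deficient and 2218 to 2540 in wild-type cells. Most of this sum is Gzma and Nkg7, whose log2 changes had opposite signs, so it is no reading of cell content. Of 17 myeloid probe sets 0 were higher and 4 lower, summing to 2140 to 2396 in E2A-deficient and 2275 to 2699 in wild-type cells. A large part of this sum is Mpo, which was not called, with means of 1036 in E2A-deficient and 907 in wild-type cells. The gamma-delta T-cell list names 10 genes, of which 5 were measured, none of them a T-cell receptor gamma or delta gene. Of its 11 probe sets 7 were higher, all of Maf or Cd163l1, which are 2 of the 5 genes measured. The list summed to 1822 to 2313 in E2A-deficient and 1019 to 1088 in wild-type cells. Of the other 3 genes, named after their values were seen, Sox13 read 158, 152 and 135 in E2A-deficient cells and 207, 183 and 199 in wild-type cells (log2 change -0.41, limma adjusted p = 0.0586), while Il17a (0.013) and Blk (0.020) overlapped between the groups and were not called. The part of gamma-delta T cells in the rises of Gzmb and Cd7 was not tested.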

How the data were processed

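Sorted fetal DN2 cells were profiled on 6 Affymetrix arrays, 3 E2A deficient and 3 wild type, with groups and replicate numbers from the labels. The authors deposited 1 linear intensity per probe set and array, and RMA is the only tool in the submitters' processing notes. Its version, any further scaling or filter and the genome build are not given in the sources used here. Gene names came from the array annotation and a RefSeq gene table (GRCm38.p6). The 64 control probe sets were left out. Log2(intensity + 1) was fitted per probe set over all 45037 with limma 3.58.1 (R 4.3.3), two-sided, with no further normalization or filter, and Benjamini-Hochberg adjustment at 0.05. The design foresaw this scale for linear values. Promoter windows were searched for E boxes by letters. Steps were tested on simulated data, and figures were drawn with matplotlib 3.10.9.

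The 10 genes, the lists and the tests were chosen with earlier results of these data known. Named were every member probe set, up to 6 non-overlapping called probe sets per list by smallest p, or the 2 smallest p where none was called, and the 3 most alike genes per called member. Other names, those of marker lists included, were chosen after their values were seen, apart from the checks of Tcf3, Xist and beta-actin. Same-numbered replicates of the 2 groups were not paired by the data (correlations of deviations 0.041, 0.041 and -0.036), so the block is an alternative only. Further alternatives were each array left out, quantile normalization, median centring, dim probe sets removed, pseudocounts of 0 and 16, trend and robust variances, array weights, the beta-actin ratio, shared probe sets removed and 1 value per gene.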

Additional observations from a re-analysis of the deposited data

How the results depend on the processing

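Of 218 refits of the 13 member probe sets, 204 kept the direction or moved by less than the replicate SD and stayed on their side of the threshold, 11 lost a call (5 of Gzmb, 6 of Cd7), 2 gained one (Gzma) and 0 reversed a called change. Called members numbered 3 in the main test, 1 to 3 with 1 array left out (1 without E2A-deficient replicate 1 or wild-type replicate 2) and 1 with a term for the beta-actin ratio. Called probe sets over the array numbered 804, against 358 to 563 with 1 array left out, 114 with the beta-actin ratio and 531 without shared probe sets (36082 tested). With the replicate number as a block, a pairing the data do not bear out, 471 were called, 2 of them members. Called probe sets of the related lists numbered 29, against 9 with the beta-actin ratio. The fits with 1 array left out used fewer arrays, and the fit without shared probe sets used fewer probe sets. The cause of these shifts was not tested. One Il2rb probe set (1417546_at) had a log2 change of 0.038 when the probe sets were averaged. Dim members limit what can be seen, since their signal lies near the floor of the deposited values.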
